A study of Homo sapiens with 20 samples.

Results

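The solute carrier (SLC) genes encode membrane proteins that move nutrients, ions, metabolites and drugs across the plasma membrane and the membranes of organelles. They were taken as all genes measured by a probe set with a single symbol made of SLC and a number, with SLC16A6, SLC13A5, SLC7A5 and SLC7A11 set aside. Where several probe sets measured a gene, that of the highest mean was used. This gave 237 genes of the 11282 measured, in 52 numbered SLC families, which are the SLC genes meant below. They were taken by symbol, but the genes set aside were chosen with earlier results of these data known. Among those set aside, SLC16A6 and SLC13A5 differed from DMSO by 1.56 and 0.83 with I3P, more than any of the 237. Of the 237 genes, 233 are protein coding, out of 386 protein-coding SLC genes in RefSeq, and the rest are not analysed here. The other 4 are the pseudogenes SLC6A10P and SLC7A5P1 and the long non-coding RNAs SLC7A11-AS1 and SLC9A3-OT1. SLC4A1AP, SLC7A6OS and SLC2A4RG carry an SLC symbol but are not themselves transporters.

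The cells were U-87MG, an established human glioblastoma line, without any genetic modification in the groups described here. For 24 h they received 40 µM of I3P (indole-3-pyruvic acid), of PP (phenylpyruvic acid) or of HPP (hydroxyphenylpyruvic acid), or else the solvent DMSO (at most 0.2%). Each of the 4 groups held 5 Affymetrix arrays, labelled as biological replicates 1 to 5. The study concerns AHR, the aryl hydrocarbon receptor, which small molecules switch on as a transcription factor, and the comparisons ask how the cells respond to each of these keto acids. The medium of all groups contained high glucose, glutamine and sodium pyruvate, which are themselves SLC substrates.

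The compounds are the keto acids of tryptophan (I3P), tyrosine (HPP) and phenylalanine (PP). Their rings differ: that of I3P is an indole, that of PP a plain phenyl, and that of HPP a phenyl bearing a hydroxyl. SLC families are numbered by sequence similarity and many share a substrate class. SLC1 and SLC7 members carry amino acids, SLC2 members glucose and SLC16 members monocarboxylates such as lactate and pyruvate. SLC25 members carry metabolites across the inner mitochondrial membrane, and many SLC35 members nucleotide sugars into the Golgi and endoplasmic reticulum. Gliomas are known for high glucose uptake and lactate export, which SLC2 and SLC16 carriers mediate.

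All values below are log2 expression as the robust multi-array average (RMA) gives it, and differences are differences of those values. Levels of different genes were not compared, because each probe set has its own scale. Where groups are said not to overlap, this describes the arrays of that gene. How often groups do not overlap was not counted over all genes, so it lends no weight to a difference. The 20 array medians lay between 9.23 and 9.279. Differences were tested with limma over all genes, and a gene was called at a Benjamini-Hochberg adjusted p under 0.05, the adjustment running over all genes of a comparison. Each test was run with no block and again with a block for the replicate number, because same-number arrays deviated from their group means in the same way. The block leaves each difference unchanged and takes the spread between replicate numbers out of its error, so that the median standard error over the SLC genes was 0.113 without it and 0.0809 with it. Each p-value sets a difference against the spread between these arrays, and nothing in the labels says how the replicate cultures were separated. All 8 marker genes of the glioblastoma line were measured, and none of them was called in any comparison. Of the markers of other cells, 3 of 5 for blood and microglia, 1 of 3 for endothelium, 2 of 4 for epithelium and 3 of 6 for neurons and oligodendrocytes were measured, and none of these was called. In RNA from whole cultures, fewer cells with a transcript and less transcript per cell cannot be told apart.

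Without the block no SLC gene was called in any of the 6 comparisons. With it 3 rose with I3P and are shown first by the start of their genes. The motif GCGTG, the core of the sequence that AHR binds with its partner ARNT, was searched on both strands from 250 bases before to 50 bases after the first transcribed base, in RefSeq sequence (GRCh38.p14). The stretches below run 5′ to 3′ on the gene's strand, from 250 bases before the start through the first 30 transcribed bases, and the capital marks the first transcribed base. SLC35F4 is at chr14:57865922-57866201, SLC9A9 at chr3:143848439-143848718 and SLC17A5 at chr6:73653963-73654242, all on the minus strand.
SLC35F4: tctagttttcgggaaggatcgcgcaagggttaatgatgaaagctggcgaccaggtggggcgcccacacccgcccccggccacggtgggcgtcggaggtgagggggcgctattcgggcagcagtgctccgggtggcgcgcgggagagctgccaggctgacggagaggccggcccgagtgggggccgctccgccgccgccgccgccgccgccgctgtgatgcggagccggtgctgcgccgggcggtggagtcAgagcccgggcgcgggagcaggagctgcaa
SLC9A9: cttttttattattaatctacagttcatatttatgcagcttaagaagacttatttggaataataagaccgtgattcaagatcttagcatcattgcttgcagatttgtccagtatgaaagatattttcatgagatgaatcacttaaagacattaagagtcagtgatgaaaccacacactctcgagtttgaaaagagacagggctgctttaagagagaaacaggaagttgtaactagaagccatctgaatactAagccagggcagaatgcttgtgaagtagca
SLC17A5: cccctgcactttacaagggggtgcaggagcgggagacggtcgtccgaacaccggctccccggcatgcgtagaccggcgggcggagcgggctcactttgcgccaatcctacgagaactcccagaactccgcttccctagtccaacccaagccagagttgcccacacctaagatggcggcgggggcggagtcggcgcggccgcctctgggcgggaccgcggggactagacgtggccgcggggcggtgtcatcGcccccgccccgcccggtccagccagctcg
None of these windows held GCGTG, and none was found in the windows of SLC7A8 and SLC44A2, which were called between compounds. Of the SLC genes, 194 had a promoter in the table and 103 of these (53.1%) held the motif, against 50.8% of 9193 matched genes among all tested and 36.3% of 27305 RefSeq promoters. A match or its absence in these windows is a description of their letters alone.

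I3P raised a proton exchanger of endosomes, a member of the SLC35 family and the sialic acid exporter of lysosomes, in the fit with the replicate number as a fixed block. With a random block, at an estimated correlation, SLC9A9 (adjusted p = 0.014) and SLC35F4 (0.0378) were called and SLC17A5 was not (0.107). In a blocked fit of only the 10 arrays compared none was called (0.159, 0.101 and 0.0765). In the fixed-block fit 3 of 237 SLC genes were called against DMSO, all higher (1.27%), where 0.603% of all genes were called and 0.488% were called as higher. Without the block 0 SLC genes were called and 0.0798% of all genes. An unadjusted p under 0.05 was reached by 13 SLC genes (5.49%) without the block, against 4.51% of all genes. With it 24 SLC genes (10.1%) reached it as higher, against 5.65% of all genes, and 7 (2.95%) as lower, against 5.37%. The share of SLC genes called is set by 3 genes, so its distance from the share of all genes was not tested.

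SLC9A9 encodes the sodium/proton exchanger NHE9 of recycling endosomes, which helps to set their internal pH. In replicates 1 to 5 it was at 8.28, 8.08, 8.09, 8.21 and 8.03 with DMSO. With I3P it was at 8.51, 8.47, 8.41, 8.44 and 8.65. The lowest I3P array was above the highest DMSO array. With HPP it was at 8.39, 7.98, 8.04, 8.26 and 8.23, and with PP at 8.32, 8.09, 8.06, 8.18 and 7.95. Arrays of both of these groups overlapped those with DMSO, and none reached the lowest I3P array. The I3P group was higher than DMSO by 0.36 (SE 0.0677 with the block, a 1.28-fold level), with limma adjusted p = 0.0176 with the block and 0.252 without it. The differences from DMSO were 0.04 with HPP and -0.02 with PP, neither called. SLC9A9 was the only SLC gene called in the test for any difference among the 4 groups (adjusted p = 0.0245 with the block, 0.437 without it), where 0.505% of all genes were called with the block and 0.0886% without it.

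SLC35F4 belongs to a branch of the SLC35 family. In replicates 1 to 5 it was at 8.33, 8.31, 9.32, 8.27 and 8.34 with DMSO. With I3P it was at 9.08, 9.12, 9.41, 9.24 and 9.36. DMSO replicate 3 stood about as high as the I3P arrays, and the other 4 DMSO arrays lay well below all of them. With HPP the values were 8.85, 8.55, 9.44, 8.78 and 8.49, and with PP they were 8.96, 8.58, 8.95, 8.19 and 8.09. The I3P group was higher than DMSO by 0.73 (SE 0.144 with the block, 1.66-fold), with limma adjusted p = 0.0247 with the block and 0.584 without it. Among the 237 SLC genes this was the largest difference from DMSO with I3P, though SLC16A6 and SLC13A5, set aside, differed by more. The difference of SLC35F4 was 0.08 in the pair of replicate 3 and 0.75 to 1.02 in the other pairs. With HPP the difference was 0.31 (95% interval 0.0054 to 0.61 with the block, adjusted p = 0.989) and every pair was above 0, and with PP it was 0.04.

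SLC17A5 encodes sialin, which exports sialic acid from lysosomes. In replicates 1 to 5 it was at 8.35, 8.28, 7.76, 8.31 and 8.19 with DMSO. With I3P it was at 8.66, 8.59, 8.13, 8.66 and 8.53. Replicate 3 was the low array of both groups, so the groups overlapped although the 5 pairs differed by nearly the same amount, 0.31 to 0.37. The mean difference was 0.34 (SE 0.0656 with the block and 0.136 without it, 1.26-fold), with limma adjusted p = 0.0224 and 0.999. The call was lost with the random block (adjusted p = 0.107). With HPP the values were 8.26, 8.32, 7.97, 8.55 and 8.39, and with PP they were 8.54, 8.61, 8.01, 8.35 and 8.30. PP was 0.19 above DMSO in the mean and above it in all 5 pairs (95% interval 0.048 to 0.33 with the block), and HPP was 0.12 above it, neither called.

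The calls did not withstand every removal of an array. With the block, each of the 3 calls was lost when certain single arrays were left out. That of SLC9A9 was lost without DMSO replicate 1 or 5 or I3P replicate 2 or 5, with adjusted p from 0.0528 to 0.0772. That of SLC35F4 was lost without DMSO replicate 1, 2, 4 or 5 or I3P replicate 2, 4 or 5, with adjusted p from 0.0674 to 0.0954. That of SLC17A5 was lost without DMSO replicate 2, 3, 4 or 5 or I3P replicate 1, 2, 4 or 5, with adjusted p from 0.0515 to 0.0786. When all arrays of a replicate number were left out, SLC17A5 lost its call whichever number it was (0.062 to 0.133). SLC9A9 lost it without number 2, 3, 4 or 5 (0.0693 to 0.103) and SLC35F4 without number 1, 2, 4 or 5 (0.0515 to 0.185). All 3 differences kept their direction in each of these fits. With single arrays left out they ranged from 0.30 to 0.40 for SLC9A9, 0.62 to 0.84 for SLC35F4 and 0.32 to 0.36 for SLC17A5.

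**Figure D1:**
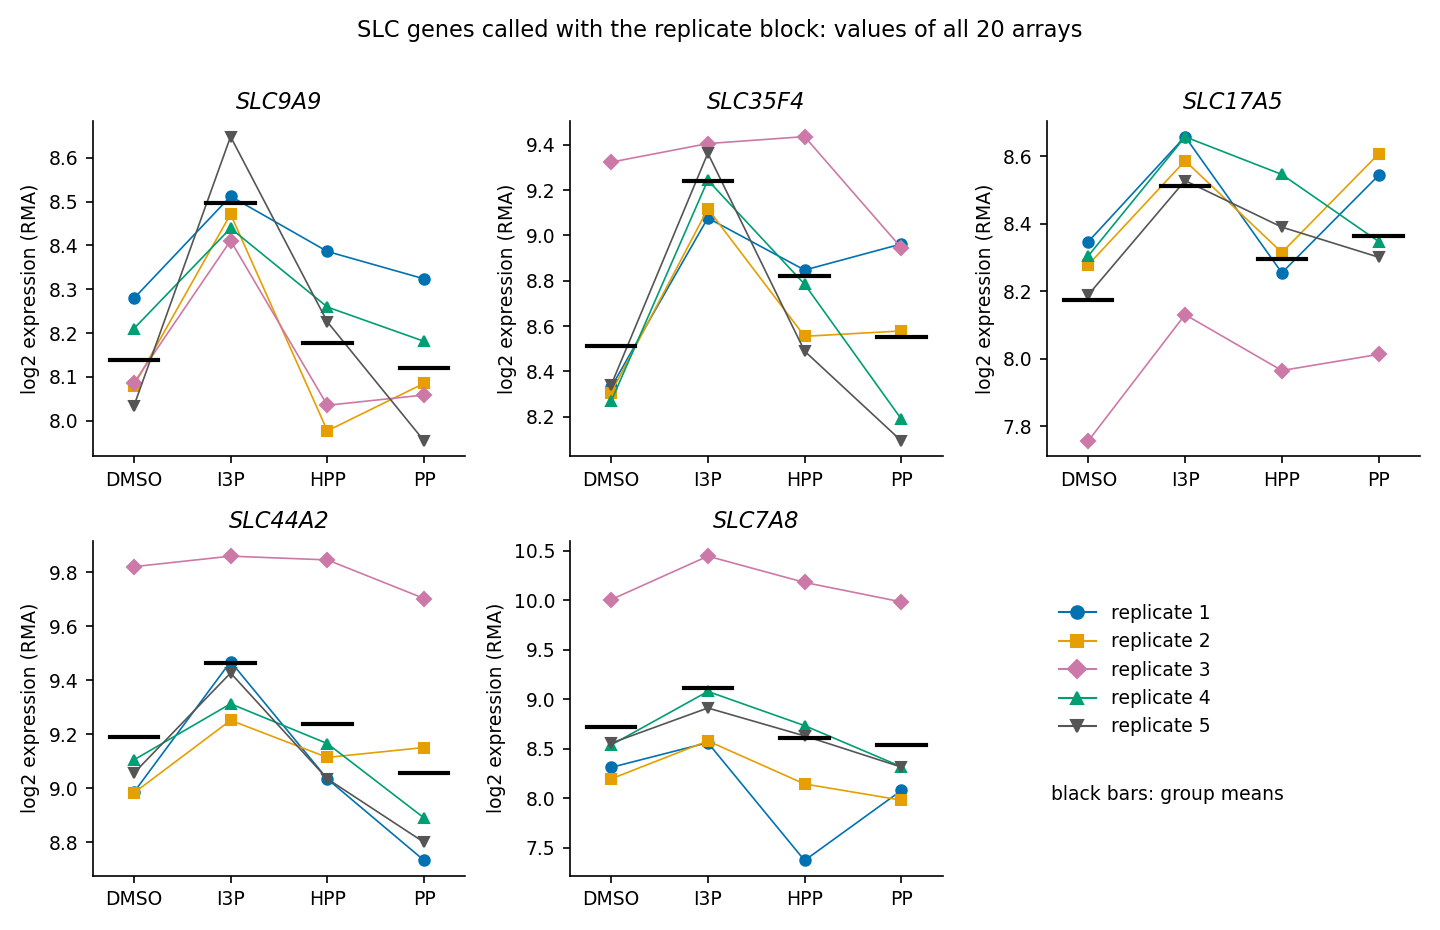
Log2 expression (RMA) of the 5 SLC genes called with the replicate block, in all 20 arrays by treatment. Lines join arrays of the same replicate number and black bars are group means (n = 5). Every SLC9A9 array with I3P lies above every other array of that gene, while replicate 3 stands apart in most groups of the other 4 genes.

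HPP changed none of the 237 SLC genes past the threshold, with or without the block. Of all genes, 0.0443% were called with the block and 0 without it. At an unadjusted p under 0.05 there were 14 SLC genes with the block (5.91%), against 4.97% of all genes. Without it there were 3 (1.27%), against 1.43% of all genes. The smallest p-values belonged to SLC25A16, a mitochondrial carrier linked to coenzyme A, to SLC12A2, the sodium-potassium-chloride cotransporter NKCC1, to SLC4A2, a chloride/bicarbonate exchanger, and to SLC25A14, a mitochondrial carrier of the uncoupling protein group. SLC12A2 was at 9.13, 9.29, 9.22, 9.11 and 9.15 with DMSO and at 9.65, 9.42, 9.36, 9.499 and 9.298 with HPP. The 2 groups did not overlap, with a difference of 0.26 (95% interval 0.099 to 0.43 with the block, adjusted p = 0.699). With I3P SLC12A2 was at 9.48, 9.67, 9.64, 9.21 and 9.37, 0.295 above DMSO (adjusted p = 0.117 with the block), and replicate 4 reached into the DMSO range. SLC25A16 was 0.27 above DMSO with HPP (adjusted p = 0.69) and SLC4A2 0.20 above it (adjusted p = 0.903). SLC25A14 was below DMSO in all 5 pairs with each compound, with differences of -0.21 for HPP, -0.19 for PP and -0.15 for I3P, and was not called with any.

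PP changed no SLC gene past the threshold, and limma called 0 of all genes with PP (0%), with or without the block. At an unadjusted p under 0.05 there were 14 SLC genes with the block (5.91%), against 4.25% of all genes. Without it there were 6 (2.53%), against 1.54% of all genes. The smallest p belonged to SLC40A1, ferroportin, the exporter of cellular iron. In replicates 1 to 5 it was at 8.57, 8.60, 8.78, 8.93 and 8.76 with DMSO and at 8.85, 9.11, 9.02, 9.44 and 9.23 with PP. PP was higher in all 5 pairs, by 0.40 in the mean (95% interval 0.21 to 0.59 with the block, adjusted p = 1), although the lowest PP array lay within the DMSO range. The chloride/bicarbonate exchanger SLC26A3 was 0.69 above DMSO in the mean and higher in 3 of 5 pairs. SLC7A4, of the cationic amino acid transporter branch, was 0.24 above it, and SLC23A1, a sodium-dependent vitamin C transporter, 0.23 above it. None of these was called.

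The 3 compounds were compared in 3 pairs at the same dose and time. I3P and PP, which differ in an indole against a phenyl ring, differed in 4 SLC genes with the block, all higher with I3P (1.69%), where 0.904% of all genes were called and 0.674% were called as higher with I3P. Without the block 0 SLC genes were called and 0.0886% of all genes. At an unadjusted p under 0.05 there were 28 SLC genes with the block (11.8%), against 12.6% of all genes. Without it there were 12 (5.06%), against 5.07% of all genes. With the random block only SLC9A9 (adjusted p = 0.0095) and SLC35F4 (0.0413) were called among the SLC genes, and in a blocked fit of only the 10 arrays compared only SLC7A8 was (0.0172). SLC9A9 was higher with I3P than with PP by 0.38 (95% interval 0.23 to 0.52, limma adjusted p = 0.0104 with the block, 0.143 without it), and the groups did not overlap. SLC35F4 was higher by 0.69 (0.38 to 0.99, adjusted p = 0.0297 and 0.524), and its groups did not overlap either. With p-values adjusted over the 3 pairs of compounds together, SLC9A9 and SLC44A2 kept their calls with the block. SLC35F4 (adjusted p = 0.0602) and SLC7A8 (0.0787) did not.

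SLC44A2 encodes a choline transporter-like protein. In replicates 1 to 5 it was at 9.47, 9.25, 9.86, 9.31 and 9.43 with I3P. With PP it was at 8.73, 9.15, 9.70, 8.89 and 8.80. I3P was higher in all 5 pairs, by 0.10 to 0.74, and replicate 3 was the highest array of both groups. With DMSO it was at 8.98, 8.98, 9.82, 9.10 and 9.06, and with HPP at 9.03, 9.11, 9.85, 9.17 and 9.03. I3P was higher than PP by 0.41 (0.24 to 0.58, adjusted p = 0.0174 with the fixed block, 0.134 with the random block and 0.979 with none). Against DMSO the differences were 0.27 with I3P (adjusted p = 0.158 with the block), 0.05 with HPP and -0.13 with PP.

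SLC7A8 encodes LAT2, an exchanger of large neutral amino acids that include the aromatic ones. In replicates 1 to 5 it was at 8.56, 8.58, 10.45, 9.08 and 8.91 with I3P. With PP it was at 8.08, 7.98, 9.98, 8.32 and 8.31. Replicate 3 stood more than 1 unit above the other arrays of each group. With DMSO it was at 8.31, 8.19, 10.01, 8.54 and 8.56, and with HPP at 7.37, 8.14, 10.18, 8.73 and 8.63, where replicate 1 was low. I3P was higher than PP by 0.58 (0.31 to 0.85, adjusted p = 0.0405 with the fixed block, 0.408 with the random block and 0.999 with none), and the 5 pairs lay between 0.46 and 0.76. I3P was 0.39 above DMSO in the mean (adjusted p = 0.235 with the block) and PP -0.19 from it, below DMSO in all 5 pairs and not called.

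Single arrays also decided calls between I3P and PP. With the block, SLC9A9 was called whichever single array was left out (adjusted p at most 0.0405), and lost its call when all arrays of replicate 2, 3, 4 or 5 were left out (0.0567 to 0.0733). SLC35F4 lost its call without I3P replicate 2, 4 or 5 or PP replicate 3, 4 or 5 (0.083 to 0.105). SLC44A2 lost it without I3P replicate 1 or 5 or PP replicate 1, 4 or 5 (0.0531 to 0.0765). SLC7A8 was called in only 6 of the 20 fits that left out 1 array, those without DMSO replicate 1, HPP replicate 1, 3, 4 or 5 or PP replicate 1. Without all arrays of a number, SLC35F4 was not called without number 2, 4 or 5 (0.121 to 0.215), SLC44A2 without 1, 4 or 5 (0.119 to 0.144) and SLC7A8 without 2, 3, 4 or 5 (0.132 to 0.211). In the fit without HPP replicate 1, the low array of SLC7A8, the adjusted p was 4.8e-05.

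Other SLC genes differed between I3P and PP by less than the threshold asks, with the block. SLC22A4, the carrier of ergothioneine, was higher with I3P by 0.33 (adjusted p = 0.0559), and its I3P arrays, at 9.03, 9.04, 9.38, 9.23 and 8.99, all lay above those with PP, at 8.81, 8.86, 8.90, 8.86 and 8.57. SLC35A2, which carries UDP-galactose into the Golgi, was higher by 0.28 (adjusted p = 0.0532). SLC4A8, a sodium-driven chloride/bicarbonate exchanger, was higher by 0.21 (0.192). SLC2A6, a member of the glucose transporter family, was also higher by 0.28 (0.13). SLC36A2, a proton-coupled amino acid transporter, was lower with I3P in 4 of 5 pairs, with a mean difference of -0.55 (0.0765). None of these was called in this fit. Among the alternatives with the block, SLC22A4 was called in 3, SLC35A2 in 4 and SLC36A2 in 3. Those of SLC36A2 left out I3P replicate 3, PP replicate 3 or all arrays of replicate 3.

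I3P and HPP, an indole against a hydroxyphenyl ring, differed in none of the 237 SLC genes with or without the block. Of all genes, 0.115% were called with it and 0 without it. At an unadjusted p under 0.05 there were 28 SLC genes with the block (11.8%), against 9.74% of all genes. Without it there were 5 (2.11%), against 3.40% of all genes. SLC9A9 had the smallest p. I3P was higher by 0.32 (95% interval 0.18 to 0.46 and adjusted p = 0.0974, both with the block), and the groups did not overlap. SLC35F4 was higher with I3P by 0.42 (0.12 to 0.72), SLC7A8 by 0.50 (0.23 to 0.78), SLC17A5 by 0.22 (0.079 to 0.36) and SLC44A2 by 0.22 (0.058 to 0.39). For SLC7A8 the pair of the low HPP replicate 1 was at 1.19 and the other 4 at 0.27 to 0.43, and the mean ranged from 0.17 to 0.90 over the alternatives run. The glutamate transporter SLC1A1 was higher by 0.30 (adjusted p = 0.207), and SLC15A4, a lysosomal transporter of histidine and peptides, by 0.19 (0.477). SLC4A8 was 0.18 higher with I3P, with no overlap of the groups (0.397). These intervals lie above 0 one gene at a time, and none of these differences was called over all genes.

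HPP and PP, which differ in the hydroxyl group, likewise had none of the 237 SLC genes called between them. Of all genes, 0.0266% were called with the block and 0 without it. At an unadjusted p under 0.05 there were 21 SLC genes with the block (8.86%), against 5.27% of all genes. Without it there were 6 (2.53%), against 1.63% of all genes. The smallest p-values belonged to SLC12A2, higher with HPP by 0.23 (95% interval 0.068 to 0.40), SLC40A1, at a difference of -0.25 (-0.44 to -0.064), and SLC25A16, higher by 0.22 (0.056 to 0.38). SLC35C1, the GDP-fucose transporter of the Golgi, was higher with HPP by 0.23, and SLC41A3, of a family of magnesium transporters, had a difference of -0.19. The difference of SLC9A9 was 0.06 (-0.087 to 0.20), that of SLC35F4 0.27 (-0.035 to 0.57), that of SLC44A2 0.18 (0.017 to 0.35) and that of SLC7A8 0.08 (-0.19 to 0.35). The interval of SLC35F4 reaches as far as 0.57, so the missing calls do not show that HPP and PP act alike.

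Somewhat more SLC genes lay above DMSO than below it with I3P. Of the 237, 143 (60.3%) had a difference above 0, against 49.96% of all genes. The median was 0.032 over the SLC genes and about 0 over all genes, and it was above 0 in 4 of the 5 same-number pairs (0.032 ± 0.030, SD). With HPP 136 lay above 0 (57.4%, all genes 50.6%), with a median of 0.020. With PP 112 did (47.3%, all genes 47.3%), with a median of -0.0036. With arrays scaled to equal medians the number above 0 was 137 with I3P and 123 with PP, and the median with PP turned to 0.0019. The 3 comparisons share the DMSO arrays. These are counts of directions, most of genes that were not called, and carry no test.

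Among the genes of ion carrier families, SLC9A3-OT1 and SLC4A1AP included, 23 of 31 lay above DMSO with I3P (median 0.084, and above 0 in all 5 pairs), and 1, SLC9A9, rose with the block. With HPP 20 of the 31 lay above it (median 0.039, also above 0 in all 5 pairs) and with PP 13 (-0.011, above 0 in 2 pairs). Of them 9 carry an SLC4 symbol, a family of bicarbonate transporters beside which SLC4A1AP, no transporter, is counted. With I3P 8 of the 9 lay above DMSO (median 0.14, from -0.012 for SLC4A1AP to 0.27 for SLC4A10), 7 with HPP and 2 with PP. Of the 6 SLC12 cation-chloride cotransporters, 5 lay above it with I3P. SLC20A1, a phosphate transporter, was 0.09 above DMSO with I3P and 0.12 with HPP.

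Carriers of organic ions, vitamins, nucleosides and choline showed a like count, 22 of 29 above DMSO with I3P (median 0.073, above 0 in all 5 pairs), 16 with HPP and 12 with PP, and none was called against DMSO. In the SLC22 family of organic ion transporters 9 of 10 lay above it with I3P (median 0.13), from -0.028 for SLC22A6 to 0.33 for SLC22A4 (adjusted p = 0.0688 with the block). With PP 3 of these 10 did. Counts are given here for some families only. Among other families of 8 or more genes, SLC7 and SLC9 each had 6 of 8 above DMSO with I3P. SLC39 had 8 of 12, SLC35 12 of 21 and SLC38 4 of 8.

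The families of amino acid and peptide carriers held 42 genes, of which SLC6A10P, SLC7A5P1, SLC7A11-AS1 and SLC7A6OS are not carriers. Of the 42, 24 lay above DMSO with I3P (median 0.030), 25 with HPP and 18 with PP, and none was called against DMSO. SLC1A3, the glial glutamate transporter, was 0.05 above DMSO with I3P, the glutamine carrier SLC1A5 0.04, SLC3A2, the heavy chain that LAT1 and LAT2 need at the membrane, 0.07, the cationic amino acid transporter SLC7A1 0.02, and the neutral amino acid transporter SLC38A2 -0.02. These 5 differences lay within 0.11 of 0 with both I3P and HPP. SLC36A2 was -0.37 from DMSO with I3P (adjusted p = 0.311 with the block). The SLC6 family, which holds neurotransmitter and amino acid transporters, had 4 of 11 above DMSO with I3P, the pseudogene SLC6A10P among the 11. Of 9 measured SLC genes known as targets of ATF4, the transcription factor of amino acid shortage, 6 lay above DMSO with I3P (median 0.043) and none was called with any compound.

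Of the carriers of aromatic amino acids, keto acids and pyruvate, with their partner proteins, 11 of 16 listed genes were measured. With I3P 8 lay above DMSO (median 0.073), with HPP 6 and with PP 6, and none was called against DMSO. SLC7A8 alone was called between I3P and PP. SLC16A1, the monocarboxylate transporter MCT1, stayed at 0.00022 from DMSO with I3P (95% interval -0.15 to 0.15). SLC16A3, the lactate exporter MCT4, was higher in all 5 pairs with I3P, by 0.19 in the mean (adjusted p = 0.178 with the block). Of the 13 carriers of monocarboxylates and other acids, 9 lay above DMSO with I3P (median 0.083), 9 with HPP and 7 with PP, and 1, SLC17A5, rose with I3P.

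Genes of the sugar carrier families were evenly divided, with 8 of 16 above DMSO with I3P (median 0.038), 8 with HPP and 9 with PP, and none called. The name of this list does not describe SLC5A6, SLC5A8 and SLC2A4RG, which are among the 16 and lay below DMSO with I3P. Of 8 genes with an SLC2 symbol 6 lay above DMSO with I3P, where SLC2A4RG, no transporter, is among the 8. SLC2A1, the main glucose transporter of glioma cells, was 0.17 above DMSO with I3P and higher in all 5 pairs (adjusted p = 0.474 with the block), and SLC2A3, a high-affinity glucose transporter, 0.22 (0.427). The pairs of SLC2A3 were uneven, at 0.39 and 0.62 for replicates 1 and 2 and from -0.03 to 0.11 for the other 3, and its mean ranged from 0.12 to 0.29 over the alternatives run. SLC5A6, the multivitamin transporter, which falls in this list by its family, was below DMSO in all 5 pairs with I3P, with a difference of -0.14 (0.449). Replicate 5 carried most of it, at -0.42 against -0.016 to -0.11 in the other pairs, and over the alternatives run the difference ranged from -0.25 to 0.032. Of 5 measured SLC genes listed for a link to hypoxia, 3 lay above DMSO with I3P (median 0.17) and none was called. They were SLC2A1, SLC2A3, SLC16A3, SLC29A1 and SLC25A36, and the list does not separate genes raised by hypoxia from genes lowered by it.

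The mitochondrial carriers of family SLC25 were the largest family, and 16 of 39 lay above DMSO with I3P (median -0.037), from -0.27 for SLC25A45 to 0.29 for SLC25A23. With HPP 20 did and with PP 21, and none was called. SLC25A1, the mitochondrial citrate carrier, was 0.09 above DMSO with I3P. Among 25 genes of the families of nucleotide sugar and related carriers, 13 lay above DMSO with I3P (median 0.0021), 15 with HPP and 12 with PP. They were grouped by family number, not by a known substrate of each gene. Of the 25, 1, SLC35F4, rose with I3P. SLC35A2 was 0.22 above DMSO with I3P, with no overlap of the arrays, and was not called (adjusted p = 0.173 with the block).

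Among 26 carriers of zinc, iron, copper, magnesium and manganese, 17 lay above DMSO with I3P (median 0.024), 15 with HPP and 11 with PP, and none was called. SLC39A7, which releases zinc from the endoplasmic reticulum, was at 9.85, 9.78, 9.94, 9.99 and 9.80 with DMSO. With I3P it was at 10.11, 10.20, 10.08, 10.03 and 10.07. The arrays did not overlap, which was not counted over all genes. The difference of 0.23 was not called (limma adjusted p = 0.12 with the block, 0.711 without it). SLC39A14, another zinc and iron importer, was -0.08 from DMSO. Of 8 lipid-related carriers 5 lay above DMSO with I3P and none was called, with SLC27A3 at 0.08 and SLC27A5 at -0.0015, both of the fatty acid transport protein family. Of the 8 remaining genes 6 did and none was called, with SLC66A2 at 0.23 and SLC67A1 at 0.09.

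**Figure D2:**
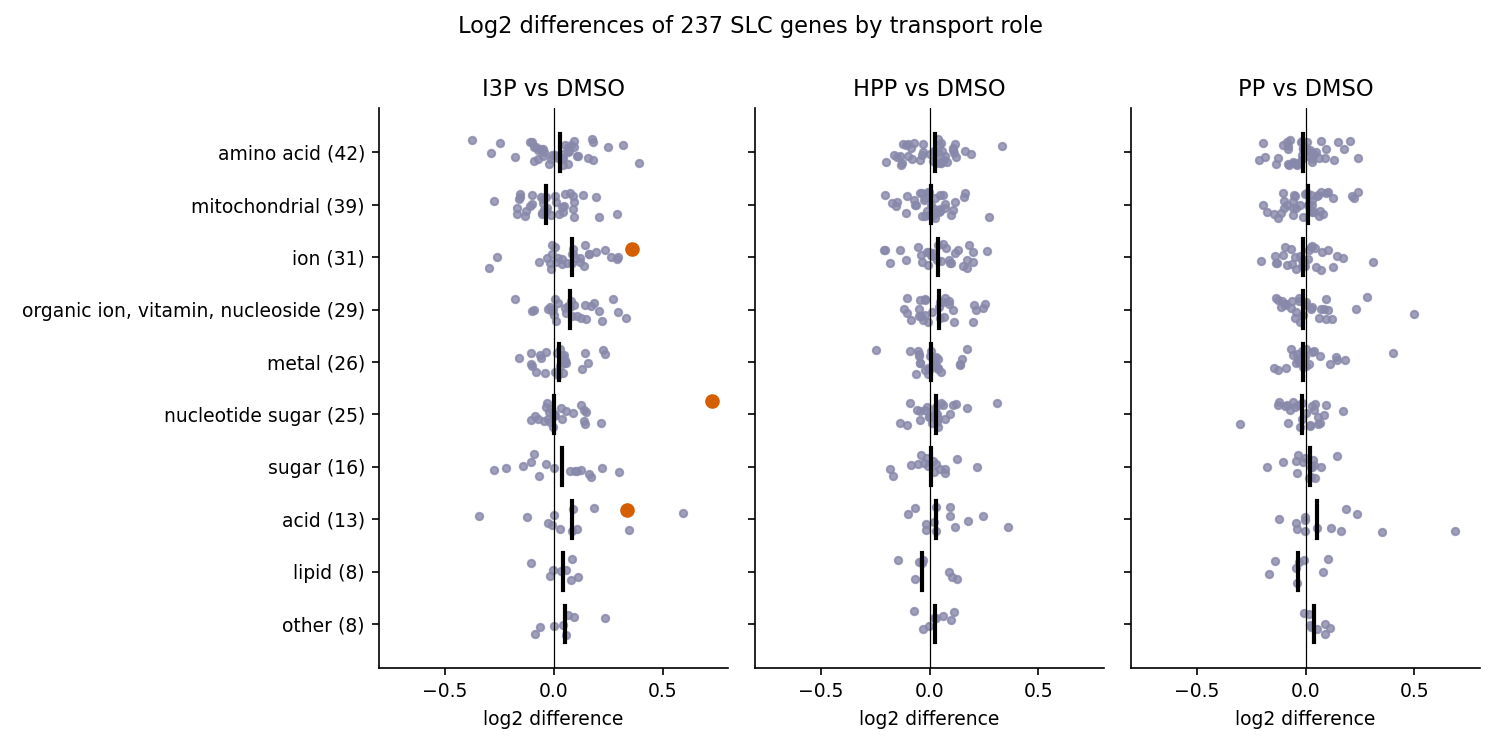
Log2 difference from DMSO of the 237 SLC genes by transport role, with the number of genes of each role in brackets, for I3P, HPP and PP. Each point is a gene, black ticks are medians and orange points are genes called with the replicate block, of which I3P has 3 and HPP and PP have 0.

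The replicate number moved far more SLC genes than treatment did. In a test for any difference among the 5 numbers, with treatment in the model, 113 SLC genes were called (47.7%), where 46.5% of all genes were, so the SLC genes stood near the rest. The number means of an SLC gene spanned a median of 0.308 (all genes 0.296), against 0.142 for the 4 group means. The span of the numbers was the wider in 211 of 237, which was not counted over all genes. The first spans 5 means of 4 arrays and the second 4 means of 5 arrays. The first therefore tends to be wider even where neither has an effect. The replicate number held a median share of 53.6% of the variation within groups in the SLC genes and 54.03% in all genes, where 25% is expected with no such effect. What the replicate numbers share, such as a day of culture, is not given in the labels, and its part in these differences was not tested.

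SLC7A8 differed most, with number means of 8.08, 8.22, 10.15, 8.67 and 8.60 for replicates 1 to 5 (limma adjusted p = 1.29e-07). Its arrays of replicate 3 stood apart in every group, and this span of 2.07 exceeds its difference of 0.58 between I3P and PP. SLC16A3 had means of 10.99, 11.36, 10.76, 11.14 and 11.62 (adjusted p = 3.22e-07). SLC2A1 had means of 10.05, 10.48, 9.59, 10.19 and 10.68 (2.62e-06). These carriers of lactate and glucose were both highest in replicate 5 and lowest in replicate 3. SLC27A3 had means of 10.53, 10.55, 10.33, 10.92 and 11.09 (1.66e-06), again highest in replicate 5 and lowest in replicate 3.

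SLC5A6 had number means of 10.04, 10.02, 10.37, 10.17 and 9.48 (adjusted p = 2.12e-06), lowest in replicate 5 and highest in replicate 3. SLC38A1, a sodium-coupled glutamine transporter, had means of 12.06, 12.01, 11.57, 11.73 and 11.61 (2.43e-06), and was higher in replicates 1 and 2 than in the others. SLC35D2, a nucleotide sugar transporter, had means of 8.94, 8.81, 8.10, 8.87 and 8.67 (4.92e-06), and SLC44A2 had means of 9.05, 9.12, 9.81, 9.12 and 9.08 (1.96e-05). In both, replicate 3 stood apart, low in the first and high in the second. Replicate 3 had the highest mean in 35 of the 113 genes (30.97%, against 31.3% over all genes called in this test) and the lowest in 28 (24.8%, against 29.8%), near or below the share of all genes. Replicate 5 had the lowest in 46 (40.7%, against 29.99%).

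**Figure D3:**
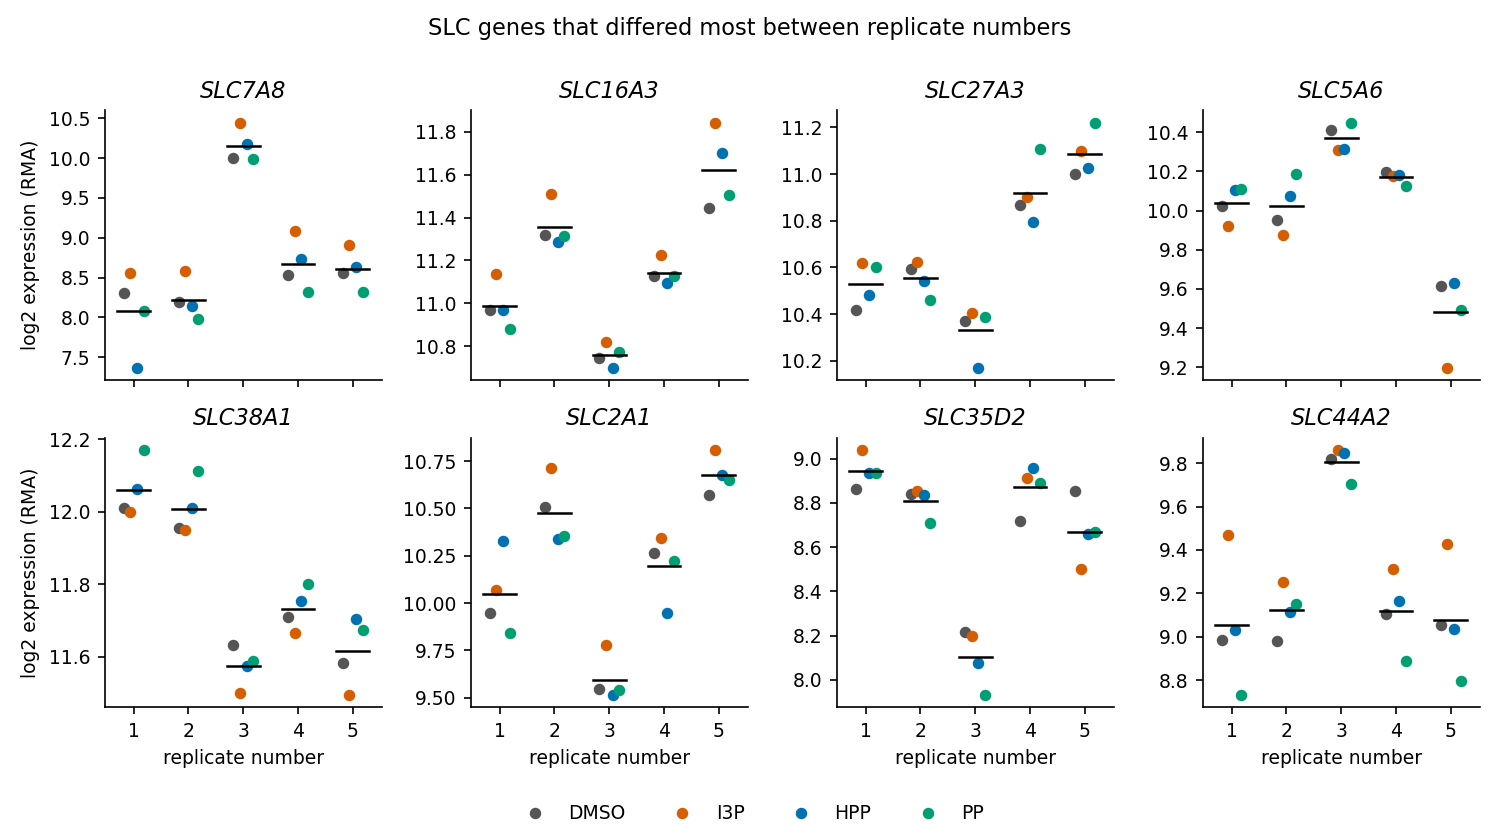
Log2 expression (RMA) by replicate number in the 8 SLC genes with the smallest p for a difference among numbers, with arrays coloured by treatment and black bars at the mean of the 4 arrays of a number. In SLC7A8 replicate 3 averages 10.15 and the other numbers 8.08 to 8.67. Arrays of different treatments lie close together within most numbers, which the choice of genes by this p favours.

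By role, the number was called for 26 of 42 genes of the amino acid carrier families (61.9%) and 16 of 26 of metals (61.5%), and for 8 of 25 of nucleotide sugars and 3 of 13 of acids (23.1%). Of the 9 measured ATF4 target carriers 7 were called. Among mitochondrial carriers it was 15 of 39 (38.5%), and among ion carriers 14 of 31 (45.2%). These shares carry no test and are to be read against 46.5% of all genes.

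Of the 4 SLC genes set aside, SLC16A6, of the monocarboxylate transporter family, differed from DMSO by 1.56 with I3P (adjusted p = 7.09e-08 with the block, 0.596 without it) and by 0.65 with HPP, and SLC13A5, a citrate transporter, by 0.83 with I3P. SLC7A5, the light chain LAT1, differed from DMSO by 0.03 with I3P, and SLC7A11, the cystine/glutamate exchanger, by 0.38 with HPP, which was not called.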

How the data were processed

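The processed values were the authors' deposited log2 expression values, made with oligo and RMA (background correction, quantile normalisation, probe summary) per the submitters' processing notes. Tool versions: not given in the sources used here. There were 12770 probe sets on 20 arrays (values 5.506 to 14.16) and no probe set had a mean below 7.943, so dim genes are not analysed here. No filter behind this is stated. The number of arrays limits the precision.

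Of the probe sets, 11316 had 1 symbol in the platform annotation, 629 several and 825 none. Symbols were updated through RefSeq GRCh38.p14 (833 updated, 33 kept), 18 of them among the SLC genes, which left 11282 genes. Left out were 10 probe sets that name an SLC gene beside another gene. Roles were assigned by family number, which misplaces single members.

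The main test took limma 3.58.1 (lmFit, eBayes; R 4.3.3), 2-sided, on the group means of all 20 arrays with no replicate block. Labels give replicate numbers 1 to 5 in each group. All 30 same-number pairs of arrays correlated above 0.1 in their deviations from group means (0.163 to 0.714), against a median of -0.157 for 120 pairs of different number. On this ground same-number arrays count as paired, and blocked values are given where they change a call. The limma code was tested on simulated data. Figures were drawn with matplotlib 3.10.9.

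Named genes were those called in a comparison, the 3 of smallest p where none was, the 2 of smallest 4-group p per role, the 8 of smallest replicate-number p and a set of well-known carriers. SLC4A10, SLC4A1AP, SLC22A6, SLC25A45 and SLC25A23 were named as ends of a range after their values were seen. SLC5A8, SLC29A1 and SLC25A36 were named as members of a list, also after their values were seen. The families given counts of their own were not chosen by a rule set beforehand. The genes, lists and tests were chosen with earlier results of these data known. Alternatives were a fixed or random block, 2 groups only, other scalings, filters on level, all probe sets and leaving out arrays.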

Additional observations from a re-analysis of the deposited data

Results flagged for a closer look

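Among the 42 SLC genes named by the rule, 168 groups of 5 arrays were searched for a single array far from the other 4. In 16 groups of 11 genes the highest or lowest array lay apart by more of the group's range than the 95% limit for 5 values allows. Chance gives about 1 in 20 groups, but some of these genes were named for their differences between replicate numbers (SLC7A8, SLC44A2 and SLC35D2 among them), so the count is not to be read against that rate. All 16 arrays were of replicate 3 or replicate 5.

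High arrays of replicate 3 were SLC7A8 at 10.01 with DMSO, 10.45 with I3P and 9.98 with PP, SLC44A2 at 9.82 with DMSO and 9.85 with HPP, and SLC35F4 at 9.32 with DMSO. Low arrays of replicate 3 were SLC17A5 at 7.76 with DMSO and 8.13 with I3P, and SLC35D2 at 8.21 with DMSO and 7.93 with PP. SLC67A1 at 8.73 and SLC1A1 at 8.31 were also low, both in DMSO replicate 3. In replicate 5 the arrays that lay apart were SLC4A8 at 9.27, SLC27A5 at 7.76 and SLC20A1 at 11.54, all with I3P, and SLC22A4 at 8.57 with PP.

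Of the genes called with the replicate block, SLC35F4, SLC17A5 and SLC7A8 have such an array in a group that their comparison uses, SLC44A2 has them in the DMSO and HPP groups, which enter the shared fit, and SLC9A9 has none.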

How the results depend on the processing

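Without the replicate block, the number of SLC genes called was 0 in all 6 comparisons and in the test among the 4 groups under every alternative run. With a fixed replicate block it was 3 for I3P against DMSO, 4 for I3P against PP and 1 among the 4 groups. With a random replicate block these were 2, 2 and 1, and SLC9A9 and SLC35F4 were the genes called in both I3P comparisons, while SLC17A5, SLC44A2 and SLC7A8 lost their calls. With the block and only the 10 arrays of the groups compared they were 0 and 1, with the block and equal array medians 3, 4 and 1, and with the block and cyclic loess 3, 5 and 1. With the block and adjustment over the 3 pairs of compounds together, an alternative chosen after seeing the data, I3P against PP gave 2. Leaving out an array or a replicate number with the block gave 0 to 4, 0 to 5 and 0 to 2 calls. Some of these fits gained calls. For I3P against DMSO, SLC7A8 was called in 2 of them and SLC12A2 and SLC22A4 in 1 each. I3P against DMSO gave 0 without DMSO replicate 5, without I3P replicate 2 or 5, or without all arrays of number 2, 4 or 5, and I3P against PP gave 0 without number 4 or 5. HPP against DMSO, PP against DMSO, I3P against HPP and HPP against PP gave 0 with the block in every fit. The 404 alternative values of the called differences all kept their direction. They hold none from the fit of genes above the median level, because all 5 called genes lay below it. SLC9A9 (mean 8.23) and SLC17A5 (mean 8.34) also fell out of the milder filter on level. The lowest mean of any probe set was 7.943. The test among replicate numbers called 113 SLC genes, 53 when only genes above the median level were tested, 69 without all 5 DMSO arrays and 70 without all 5 PP arrays, and 95 to 114 when 1 array was left out. Fewer genes or arrays were tested in these fits. The medians of the lists moved by less than their spread between pairs under the other scalings. Signal near background can compress differences on this scale, so the folds of the dimmest genes analysed may be understated. This was not tested.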

Other observations

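Genes of SLC families whose symbols are not made of SLC and a number gave 33 measured genes of 40 listed. With I3P 23 lay above DMSO (median 0.028), with HPP 13 and with PP 14, and none was called against DMSO. The ABC genes, a separate class that is mostly ATP-driven transporters, had 31 measured genes, of which 17 lay above DMSO with I3P (median 0.0090). With the replicate block 1 of the 31 was called, the potassium channel subunit ABCC9, which fell by 0.42 and is named here after its value was seen. The replicate number was called for 15 of the 33 (45.5%) and for 19 of the 31 ABC genes (61.3%), where it was called for 46.5% of all genes.

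The 4 SLC genes that are not protein coding were not called in any comparison against DMSO. With I3P, SLC7A11-AS1 differed from DMSO by -0.18, SLC9A3-OT1 by 0.12, SLC6A10P by -0.04 and SLC7A5P1 by 0.04. Pseudogenes and antisense RNAs resemble or overlap other genes, so these levels are uncertain.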
